A study of Mus with 6 samples.

Results

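The receptor chains of the gamma chain cytokine group were followed by their mRNA in activated mouse CD4+ T cells. The genes were chosen by name, as Il2ra, Il2rb, Il2rg, Il4ra, Il7r, Il21r, Il15ra and Il9r. Of these 8 genes, 7 were among the 10995 genes of the expression table, and Il9r was not analysed here. Naive CD4+ T cells from the spleen of WT mice were activated in culture for 3 days with anti-CD3 at 5 μg/mL, anti-CD28 at 2 μg/mL and IL-2 at 100 U/mL. In 3 libraries the cultures also received an anti–VEGF-B antibody, which neutralizes the growth factor VEGF-B, at 1 μg/mL, and in the other 3 libraries they received normal goat IgG at 1 μg/mL. Both groups thus contained added IL-2, the ligand of the receptor that Il2ra, Il2rb and Il2rg form, and both were of the same genotype. No age and no strain are given in the labels. The labels do not say whether the 3 libraries of a group came from separate animals or cultures, so the p-values measure the spread between these libraries, which may be technical.

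Il2rg encodes the common gamma chain, which pairs with the other chains to make the receptors for IL-2, IL-4, IL-7, IL-9, IL-15 and IL-21. The beta chain from Il2rb serves both IL-2 and IL-15, the alpha chain from Il2ra (CD25) gives the IL-2 receptor its high affinity, and the chains from Il4ra, Il7r, Il21r, Il9r and Il15ra set which of the other cytokines is bound. The gamma chain carries the kinase JAK3, and signalling partner chains such as that from Il2rb carry JAK1. Together these kinases activate STAT proteins. These are above all STAT5 downstream of IL-2, IL-7 and IL-15, STAT6 downstream of IL-4 and STAT3 downstream of IL-21. In T cells these receptors support survival and division, and Il2ra is itself induced by antigen receptor and IL-2 signals.

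Of the 7 receptor genes, 4 were lower under anti–VEGF-B at an adjusted p under 0.05, namely Il2ra, Il21r, Il2rg and Il7r. Il2ra and Il21r were at about the same share of their IgG means (49.9% and 49.6%), Il2rg was at 62.0% and Il7r at 78.8%. Il2rb, the most abundant of the chains, had a mean of 106% of that in the IgG group, and it did not pass the test. Neither did Il4ra nor Il15ra. None of the 7 genes was higher at this threshold in the limma test, and none was higher at an unadjusted p under 0.05 (0 genes). Values are FPKM, that is, fragments scaled to transcript length and to the library total, which allows levels to be set side by side between genes. Fold changes are differences of group means on the log2(FPKM + 1) scale, anti–VEGF-B minus IgG, tested with limma over the 8816 genes whose FPKM averaged 1 or more in the 6 libraries, and adjusted by the method of Benjamini and Hochberg.

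Lower expression under anti–VEGF-B was common across the transcriptome in this table. Of all tested genes, 23.8% were lower and 4.87% higher at the same threshold, 71.2% had a negative log2 fold change, and the median gene stood at -0.15. The 4 lower calls among 7 receptor genes and their median of -0.32 should be read beside these values. The FPKM of all genes summed to between 260058 and 276622 in the 6 libraries. The number of reads behind each value is unknown, since reads could not be recovered from the low values. The gene names and positions that follow are those of the table, in the mouse build GRCm38. Cd4 itself stood between 64.8 and 73.4 FPKM under anti–VEGF-B and between 64.0 and 74.6 with IgG. Of 6 tested T cell markers 2 were lower, and 4 did not pass. Thy1 fell by 0.75 (adjusted p = 0.00768, limma) and Cd3e, a subunit of the antigen receptor complex, by 0.51 (adjusted p = 0.0197, lost in 5 of 18 alternatives), and their part in the receptor results was not tested. Cd8a was at most 0.182 FPKM, although Cd8b1 was between 2.27 and 4.51. The B cell gene Cd79b reached at most 1.34 FPKM, and the natural killer cell gene Eomes at most 0.203. The myeloid genes Lyz2, Csf1r and Cd14 summed to 19.8 FPKM in IgG replicate 3 and to between 3.95 and 5.11 FPKM in the other 5 libraries. Without that library, 3 receptor genes remained lower, beside 1514 of all tested genes. Their log2 fold changes were -1.03 for Il2ra, -0.96 for Il21r and -0.69 for Il2rg.

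The chains of the IL-2 receptor differed from one another. Il2ra (ENSMUSG00000026770.5, plus strand, chr2:11642807-11693193) measured 65.7, 57.5 and 51.8 FPKM under anti–VEGF-B and 94.9, 150 and 106 FPKM with IgG. All 3 anti–VEGF-B libraries lay under the lowest IgG library, and the group means were 58.3 ± 7.01 and 117 ± 28.9 FPKM (SD, n = 3 each). Il2ra fell by 0.97 on the log2 scale (SE 0.157, 95% interval -1.33 to -0.62, adjusted p = 0.00665, limma), and 0.828% of the tested genes had a lower log2 fold change. The RNA was taken from whole cultures, in which fewer cells expressing a gene and less of its RNA per cell cannot be told apart.

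Il2rg (ENSMUSG00000031304.18, minus strand, chrX:101264378-101268255) measured 32.3, 32.1 and 31.7 FPKM under anti–VEGF-B and 46.2, 59.4 and 49.4 FPKM with IgG. The anti–VEGF-B libraries were almost at one level, well under all IgG libraries, with means of 32.0 ± 0.336 and 51.7 ± 6.91 FPKM (SD, n = 3 each). The gamma chain gene fell by 0.67 on the log2 scale (SE 0.0959, 95% interval -0.88 to -0.45, adjusted p = 0.00496, limma). By p-value it stood at rank 105 of the tested genes, ahead of Il2ra at rank 196.

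Il2rb (ENSMUSG00000068227.8, minus strand, chr15:78480553-78495066) measured 418, 415 and 395 FPKM under anti–VEGF-B and 366, 404 and 383 FPKM with IgG. The groups overlapped, since the lowest anti–VEGF-B library lay under the highest IgG library. The means were 409 ± 12.3 and 385 ± 19.2 FPKM (SD, n = 3 each), with a log2 fold change of 0.090 (SE 0.0728, 95% interval -0.074 to 0.25, adjusted p = 0.365). By its mean level Il2rb was rank 123 of the tested genes, and Il2ra was rank 405.

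**Figure D1:**
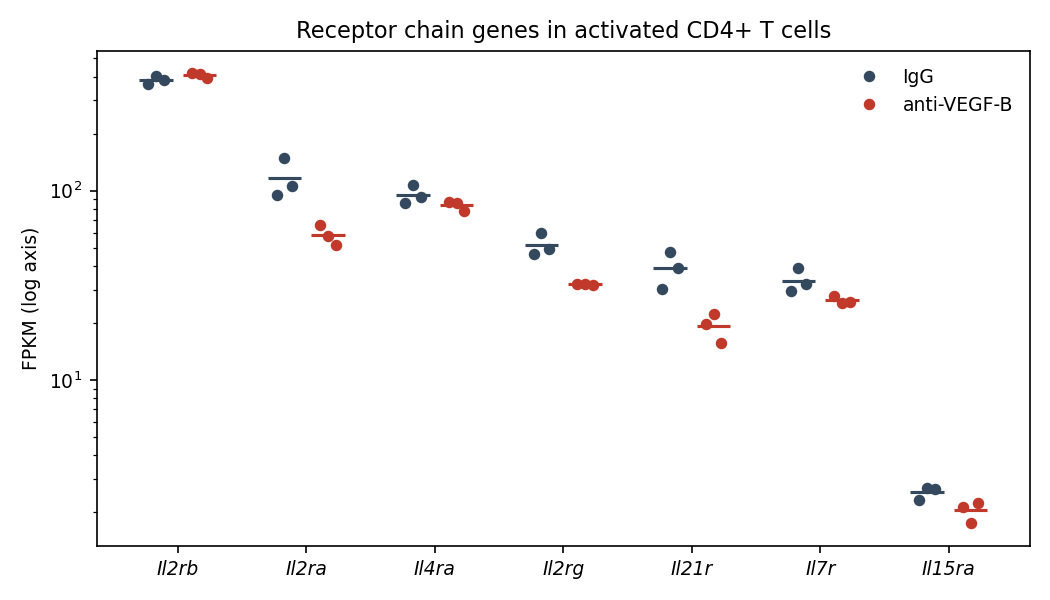
FPKM on a log axis of the 7 receptor chain genes in each of the 6 libraries, with IgG in dark blue and anti–VEGF-B in red, and a bar at each group mean. For Il2ra, Il2rg, Il21r, Il7r and Il15ra the red points all lie under the dark blue ones, whereas those of Il2rb and Il4ra overlap.

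Il4ra and Il21r lie next to each other on chromosome 7, 24.0 kb apart with 0 RefSeq protein-coding genes between them, and they differed in response. Il21r (ENSMUSG00000030745.9, plus strand, chr7:125603429-125633570), the private chain of the IL-21 receptor, measured 19.8, 22.4 and 15.6 FPKM under anti–VEGF-B and 30.2, 47.7 and 38.8 FPKM with IgG. The groups were apart, at 19.3 ± 3.45 and 38.9 ± 8.74 FPKM (SD, n = 3 each). Il21r fell by 0.97 on the log2 scale (SE 0.169, 95% interval -1.35 to -0.59, adjusted p = 0.00756, limma), and 0.862% of the tested genes had a lower value.

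Il4ra (ENSMUSG00000030748.9, plus strand, chr7:125552120-125579474), whose chain binds IL-4 and also takes part in the IL-13 receptor, measured 86.7, 86.5 and 77.8 FPKM under anti–VEGF-B and 85.7, 107 and 92.6 FPKM with IgG. The groups overlapped, and the means of 83.7 ± 5.10 and 95.0 ± 10.7 FPKM (SD, n = 3 each) gave a log2 fold change of -0.18 (SE 0.0933, 95% interval -0.39 to 0.034, adjusted p = 0.175). That value is close to the median of all tested genes.

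Il7r (ENSMUSG00000003882.5, minus strand, chr15:9505788-9530176) encodes the alpha chain of the IL-7 receptor, a survival receptor of resting T cells. It measured 27.8, 25.4 and 25.9 FPKM under anti–VEGF-B and 29.4, 39.0 and 32.1 FPKM with IgG. The groups were apart by a small margin, with means of 26.4 ± 1.24 and 33.5 ± 4.93 FPKM (SD, n = 3 each). Il7r fell by 0.32 on the log2 scale (SE 0.105, 95% interval -0.56 to -0.088, adjusted p = 0.0460, limma). This call lies at the threshold, and it was lost under 15 of 18 processing alternatives. Without IgG replicate 2 the log2 fold change of Il7r was -0.21 (adjusted p = 0.121).

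Il15ra lies 12.1 kb from Il2ra on chromosome 2, again with 0 RefSeq protein-coding genes between them. Il15ra (ENSMUSG00000023206.16, plus strand, chr2:11705290-11734317), which binds IL-15 and can present it to neighbouring cells, was the least abundant chain, at 2.14, 1.75 and 2.24 FPKM under anti–VEGF-B and 2.32, 2.68 and 2.65 FPKM with IgG. All anti–VEGF-B values were under all IgG values, at means of 2.04 ± 0.257 and 2.55 ± 0.201 FPKM (SD, n = 3 each), but the log2 fold change of -0.23 did not pass the test (SE 0.108, 95% interval -0.47 to 0.018, adjusted p = 0.139).

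The 2 groups were apart, with anti–VEGF-B lower, for 5 of the 7 receptor genes, and this was so for 38.5% of all tested genes. The exact 2-sided permutation test, which cannot go under 0.1 with 3 libraries against 3, gave p = 0.1 for each of these 5 genes, 0.3 for Il4ra and 0.2 for Il2rb. Within the IgG group, replicate 2 was the highest library for 7 of 7 receptor genes, and within the anti–VEGF-B group replicate 3 was the lowest for 5. Without IgG replicate 2 the log2 fold changes were -0.78 for Il2ra, -0.81 for Il21r and -0.56 for Il2rg, and these 3 genes still passed the test. Of all tested genes, 1073 were lower without that library.

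**Figure D2:**
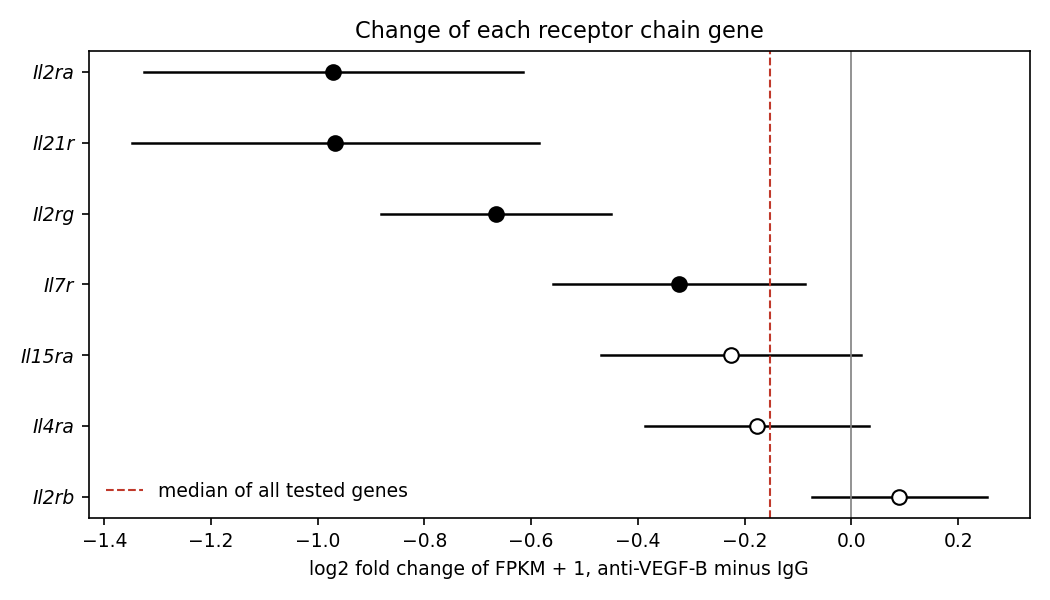
Log2 fold change of FPKM + 1, anti–VEGF-B minus IgG, for each receptor chain gene with its 95% interval, filled where the adjusted p was under 0.05. The dashed line is the median of all tested genes, -0.15. Il2ra and Il21r lie furthest from it and Il2rb is the only chain to the right of 0.

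The sum and the shares of the receptor genes were compared as well. The FPKM of the 7 genes summed to 631 ± 27.3 under anti–VEGF-B and to 723 ± 78.9 in the IgG libraries (SD, n = 3 each, exact 2-sided permutation p = 0.1, the smallest possible), and the highest anti–VEGF-B sum of 652 lay close to the lowest IgG sum of 655. Without Il2rb the sums were 222 ± 15.2 and 339 ± 60.0 (SD, n = 3 each). Il2rb made up 64.0%, 64.8% and 65.8% of the sum under anti–VEGF-B and 55.9%, 50.0% and 54.4% with IgG. Il2ra took 9.23% ± 0.757 under anti–VEGF-B and 16.0% ± 2.16 in the IgG libraries, Il21r 3.05% ± 0.451 and 5.34% ± 0.657, and Il2rg 5.08% ± 0.171 and 7.14% ± 0.183 (SD, n = 3 each). The groups were apart for each of these 4 shares (exact 2-sided permutation p = 0.1 each, the smallest possible). The share of Il4ra was 13.3% ± 0.273 and 13.1% ± 0.0443, with overlapping groups (exact permutation p = 0.5). These shares are of a fixed sum, so they do not vary independently of one another.

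The order of the levels within a library was nearly fixed. Il2rb was first, Il2rg was at rank 4 and Il15ra was last in all 6 libraries. Il2ra came before Il4ra in each IgG library and after it in each anti–VEGF-B library. Their FPKM ranges overlapped with IgG (94.9 to 150 against 85.7 to 107) and were apart under anti–VEGF-B (51.8 to 65.7 against 77.8 to 86.7). In the same way Il21r came before Il7r in each IgG library, with overlapping ranges (30.2 to 47.7 against 29.4 to 39.0), and after it in each anti–VEGF-B library (15.6 to 22.4 against 25.4 to 27.8). Il2rg and Il21r also overlapped with IgG, where the lowest Il2rg value was 46.2 FPKM and the highest Il21r value 47.7 FPKM.

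**Figure D3:**
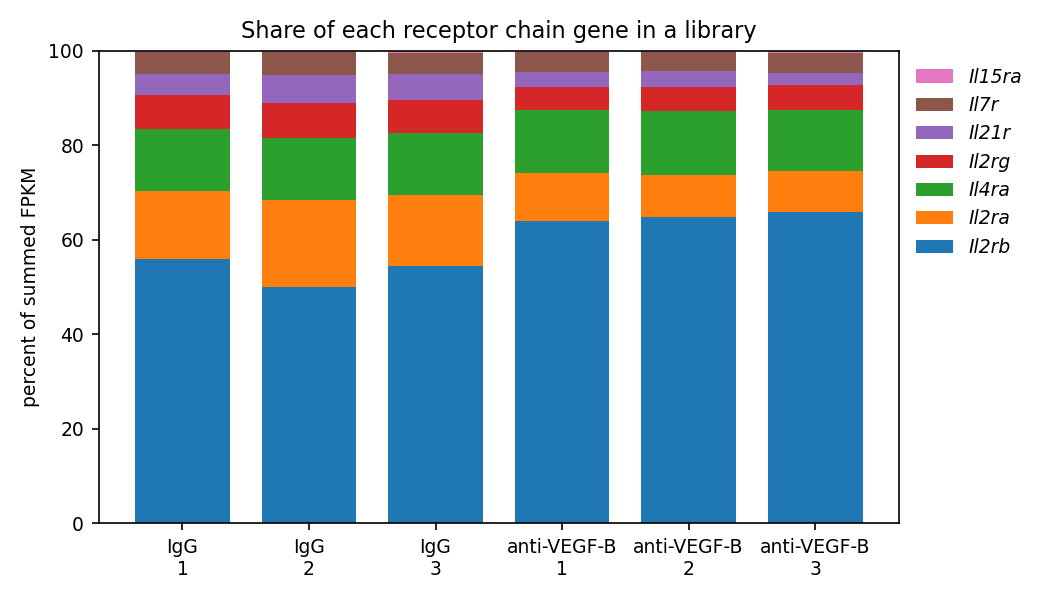
Percent of the summed FPKM of the 7 receptor chain genes taken by each gene, one stacked bar per library. Il2rb takes 50.0% to 55.9% of the IgG bars and 64.0% to 65.8% of the anti–VEGF-B bars, while the bands of Il2ra, Il2rg and Il21r are narrower under anti–VEGF-B.

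Since the other chains take part in receptors with the gamma chain, each was also set against Il2rg. For this, the log2(FPKM + 1) of Il2rg was subtracted from every gene in each library and the test was repeated. A constant factor per library cancels in an FPKM ratio, but not fully after adding 1 to a low value. For Il2rb, the ratio to Il2rg was 12.9, 12.9 and 12.5 under anti–VEGF-B and 7.92, 6.80 and 7.76 with IgG, with a relative log2 change of 0.76 (95% interval 0.44 to 1.08, adjusted p = 0.000981, limma). Relative to Il2rg, Il4ra rose by 0.49 (adjusted p = 0.00299), Il15ra by 0.44 (adjusted p = 0.00558) and Il7r by 0.34 (adjusted p = 0.0106). Thus 4 of the other 6 chains were higher relative to Il2rg, as were 78.6% of all tested genes, and 0.817% of the genes were lower. With the other chain as the reference, the adjusted p was 0.000935 for Il2rb, 0.0136 for Il4ra and 0.0297 for Il15ra. For Il7r it was 0.0691, so that call depended on the choice of reference. The p for Il7r was also 0.0572 without anti–VEGF-B replicate 1. The relative change of Il15ra, the lowest of the chains, was 0.42 when scaled to Actb, 0.64 with quantile normalization and 0.66 with cyclic loess.

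Il2ra and Il21r did not separate from Il2rg by this test. The ratio of Il2ra to Il2rg was 1.82 ± 0.201 under anti–VEGF-B and 2.24 ± 0.245 in the IgG libraries (SD, n = 3 each), and its relative log2 change was -0.30 (95% interval -0.60 to -0.0081, adjusted p = 0.0561, limma). For Il21r the ratios were 0.602 ± 0.103 and 0.747 ± 0.0817 (SD, n = 3 each), with a relative change of -0.30 (95% interval -0.61 to 0.010, adjusted p = 0.0691, limma). The ratios of Il2ra to Il2rg were narrowly apart (at most 2.03 under anti–VEGF-B, at least 2.05 with IgG), and those of Il21r overlapped. With Il2ra or Il21r as the reference, the adjusted p of Il2rg was 0.220 or 0.260 (limma). The p-values relative to Il2rg changed with the moderation and the libraries used. With moderation without trend they were 0.0426 for Il2ra and 0.0694 for Il21r. Without IgG replicate 1 they were 0.0310 for Il2ra and 0.0258 for Il21r, and without anti–VEGF-B replicate 2 that of Il21r was 0.0336.

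Some pairs of chains were compared after their values had been seen, with the same kind of fit. The ratio of Il2ra to Il2rb, the alpha to the beta chain of the IL-2 receptor, was 0.157, 0.139 and 0.131 under anti–VEGF-B and 0.259, 0.370 and 0.277 with IgG. Relative to Il2rb, Il2ra fell by 1.06 on the log2 scale (95% interval -1.37 to -0.76, adjusted p = 0.00120, limma), beside 44.8% of all genes that were lower relative to Il2rb. For the neighbours on chromosome 7, the ratio of Il21r to Il4ra was 0.229 ± 0.0294 and 0.406 ± 0.0487 (SD, n = 3 each), and Il21r fell by 0.79 relative to Il4ra (95% interval -1.07 to -0.51, adjusted p = 0.00651, limma), where 7.95% of genes were lower. For the neighbours on chromosome 2, Il2ra fell by 0.75 relative to Il15ra (95% interval -1.05 to -0.44, adjusted p = 0.00106, limma), where 4.39% of genes were lower. With the reference gene exchanged, the adjusted p-values of these 3 pairs were 0.000749, 0.00715 and 0.00118. Il2ra and Il21r moved by nearly the same amount, since the ratio of Il2ra to Il21r was 3.07 ± 0.435 and 3.01 ± 0.235 (SD, n = 3 each), but the interval of their difference was wide, at -0.55 to 0.54 (adjusted p = 0.990, limma).

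The calls on the receptor chains were then set against other ways of processing the table. Il2ra, Il2rg and Il21r were lower at an adjusted p under 0.05 in 17 of 18 alternatives each, and the exception was the test with no moderation of the variance, in which the adjusted p-values were 0.0833, 0.0698 and 0.0871. In that test 0 receptor genes passed, and of all tested genes only 6 were lower and 6 higher. An unadjusted p under 0.05 was reached by 3 receptor genes, and the share of all genes at that limit was not counted. After median centring of the libraries, which moved the median gene to 0.049, the log2 fold change was -0.77 for Il2ra, -0.77 for Il21r and -0.46 for Il2rg, and Il2rb rose by 0.29 (adjusted p = 0.0454). Il15ra was at 0.012 and 0.0038 under quantile and cyclic loess normalization, Il4ra at 0.024 after median centring, and Il2rb at -0.0044 under cyclic loess, so no direction is given for these genes.

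**Figure D4:**
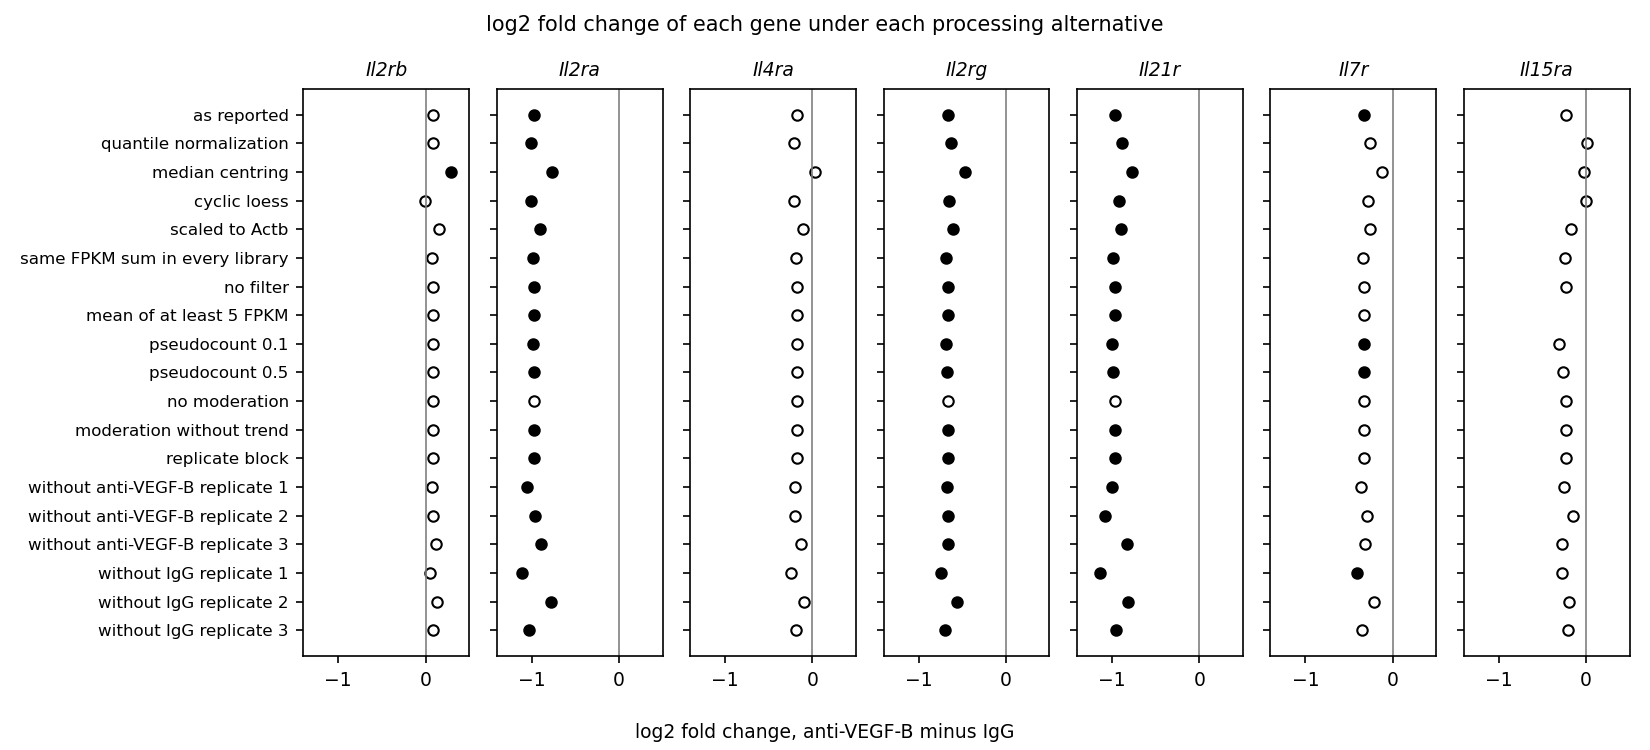
Log2 fold change, anti–VEGF-B minus IgG, of each receptor chain gene (one panel each) as reported and under each of the 18 processing alternatives, filled where the adjusted p was under 0.05. The points of Il2ra, Il2rg and Il21r stay left of 0 throughout, and those of Il2rb, Il4ra and Il15ra lie at both sides of it. Il15ra has no point where a mean of at least 5 FPKM was required.

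Other genes of the pathway were taken from lists of ligands, partner chains, signalling proteins, feedback inhibitors, target genes and transcription factors that act on receptor genes. Of 50 listed genes 44 were tested, of which 17 were lower, 6 higher and 21 did not pass, with a median log2 fold change of -0.21. Beside the 23.8% and 4.87% of all genes, no test of the difference was made.

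Among the ligands, Il2 went up while Il4, Il13 and Il21 went down. Il2, the autocrine growth factor of activated T cells, measured 1.33, 1.77 and 1.42 FPKM under anti–VEGF-B and 0.801, 0.583 and 0.292 FPKM with IgG, and rose by 0.69 on the log2 scale (SE 0.138, adjusted p = 0.0104, limma). The groups were apart at these low levels. With IgG the mean was 0.559 FPKM, under the filter of 1 FPKM, so Il2 was tested only because of its level under anti–VEGF-B. Its log2 fold change was 1.36 with a pseudocount of 0.1. Il21, made by activated helper cells, measured 1.11, 0.981 and 0.796 FPKM and 2.26, 3.36 and 2.50 FPKM in the respective groups, and fell by 0.91 (SE 0.132, adjusted p = 0.00499). It averaged 0.961 FPKM under anti–VEGF-B and passed the filter through the IgG group, and with a pseudocount of 0.1 its value was -1.39. Both Il21 and the receptor gene Il21r were thus lower in these cultures.

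Il4, the ligand that Il4ra binds, measured 8.31, 6.64 and 7.52 FPKM under anti–VEGF-B and 10.3, 17.2 and 12.6 FPKM with IgG, and fell by 0.73 (SE 0.162, adjusted p = 0.0138, limma). Il13, a related type 2 cytokine that signals through Il4ra together with Il13ra1, measured 5.37, 4.02 and 4.31 FPKM and 9.04, 18.4 and 11.7 FPKM, and fell by 1.29 (SE 0.212, adjusted p = 0.00685). In both genes IgG replicate 2 was the highest library, as it was in the receptor genes. Of the partner chains, Crlf2, which joins the IL-7 receptor alpha chain to bind TSLP, measured 16.7, 16.8 and 16.4 FPKM and 12.6, 13.9 and 11.2 FPKM, and rose by 0.38 (SE 0.0914, adjusted p = 0.0178). Il13ra1 was between 0.460 and 1.11 FPKM in the 6 libraries and was not tested. Il7, Il9, Il15 and Tslp were not analysed here.

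Most of the signalling genes, like most of all tested genes, did not pass the test. Of 12, 1 was lower, 1 was higher and 10 did not pass, beside 23.8% lower and 4.87% higher among all tested genes. Their median was -0.071, which was 0.13 after median centring. Irs2, an adaptor of the IL-4 receptor, fell by 0.33 (adjusted p = 0.0460, limma), and Pik3r1, a regulatory subunit of PI3K, rose by 0.28 (adjusted p = 0.0428). Both calls were lost in many alternatives (14 of 18 for Irs2 and 8 of 18 for Pik3r1). The log2 fold change was 0.14 for Jak1 (adjusted p = 0.160), -0.31 for Jak3 (adjusted p = 0.0763), -0.25 for Stat5a (adjusted p = 0.0548) and -0.036 for Stat5b (adjusted p = 0.749). Jak1 and Stat5b were named after their values were seen.

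Among the inhibitors of cytokine signals, 5 of 6 feedback genes were lower and 1 was higher, beside 23.8% and 4.87% of all genes, with a median of -0.49. With median centring 3 were lower, and with quantile normalization or cyclic loess 4. Of all 8816 tested genes, 807 were lower with median centring, 913 with quantile normalization and 938 with cyclic loess. Socs1, which blocks JAK kinases, measured 14.6, 16.4 and 11.7 FPKM under anti–VEGF-B and 27.4, 35.8 and 23.1 FPKM with IgG, and fell by 0.96 (SE 0.162, adjusted p = 0.00714, limma). Socs2 also fell by 0.96 (adjusted p = 0.00685), Socs3 by 0.55 (adjusted p = 0.0152) and the phosphatase gene Ptpn6 by 0.40 (adjusted p = 0.0136). Cish, a direct STAT5 target, fell by 0.42 (adjusted p = 0.0275), whereas Ptpn2, a phosphatase that acts on JAK and STAT proteins, rose by 0.34 (adjusted p = 0.0273). Cish and Ptpn2 were named after their values were seen, and their calls were lost in 7 and 5 of 18 alternatives.

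Of 13 target genes of these receptors, 7 were lower, 1 was higher and 5 did not pass, with a median of -0.49. Among all tested genes 23.8% were lower and 4.87% higher. After median centring 6 targets were lower and 2 higher, with a median of -0.29, beside 807 lower and 1365 higher of all 8816 genes. With quantile normalization 8 targets were lower and 1 higher, with a median of -0.57, beside 913 lower and 880 higher of all genes. Lif, a cytokine of the IL-6 family, measured 4.10, 4.07 and 3.55 FPKM under anti–VEGF-B and 9.67, 16.3 and 10.1 FPKM with IgG, and fell by 1.37 (SE 0.172, adjusted p = 0.00469, limma). Osm, of the same family, fell by 1.29 (adjusted p = 0.00634). The survival kinase genes Pim1 and Pim2 went opposite ways, since Pim1 fell by 0.69 (adjusted p = 0.00491) and Pim2 rose by 0.47 (adjusted p = 0.00714). Pim2 measured 165, 192 and 183 FPKM under anti–VEGF-B and 131, 123 and 135 FPKM with IgG. Bcl2, a survival gene named after its value was seen, fell by 0.97 (adjusted p = 0.00731).

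Among transcription factors with a known hand in the expression of receptor genes, 8 were tested, of which 1 was lower, 1 higher and 6 did not pass. Of all tested genes, 23.8% were lower and 4.87% higher. Gfi1, a repressor of Il7r, measured 8.39, 9.66 and 6.87 FPKM under anti–VEGF-B and 13.2, 16.6 and 15.4 FPKM with IgG, and fell by 0.79 (SE 0.128, adjusted p = 0.00657, limma). Foxo1, an activator of Il7r, measured 43.1, 50.2 and 43.5 FPKM and 31.8, 30.2 and 35.0 FPKM, and rose by 0.48 (SE 0.0894, adjusted p = 0.00875). Ets1 stood at -0.19 (adjusted p = 0.135) and Runx3 at 0.14 (adjusted p = 0.210). Gabpa and Tbx21, named after their values were seen, stood at -0.090 (adjusted p = 0.602) and -0.025 (adjusted p = 0.892). The median of the 8 was -0.093 and turned positive under quantile normalization, cyclic loess and median centring (0.059, 0.054 and 0.11).

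**Figure D5:**
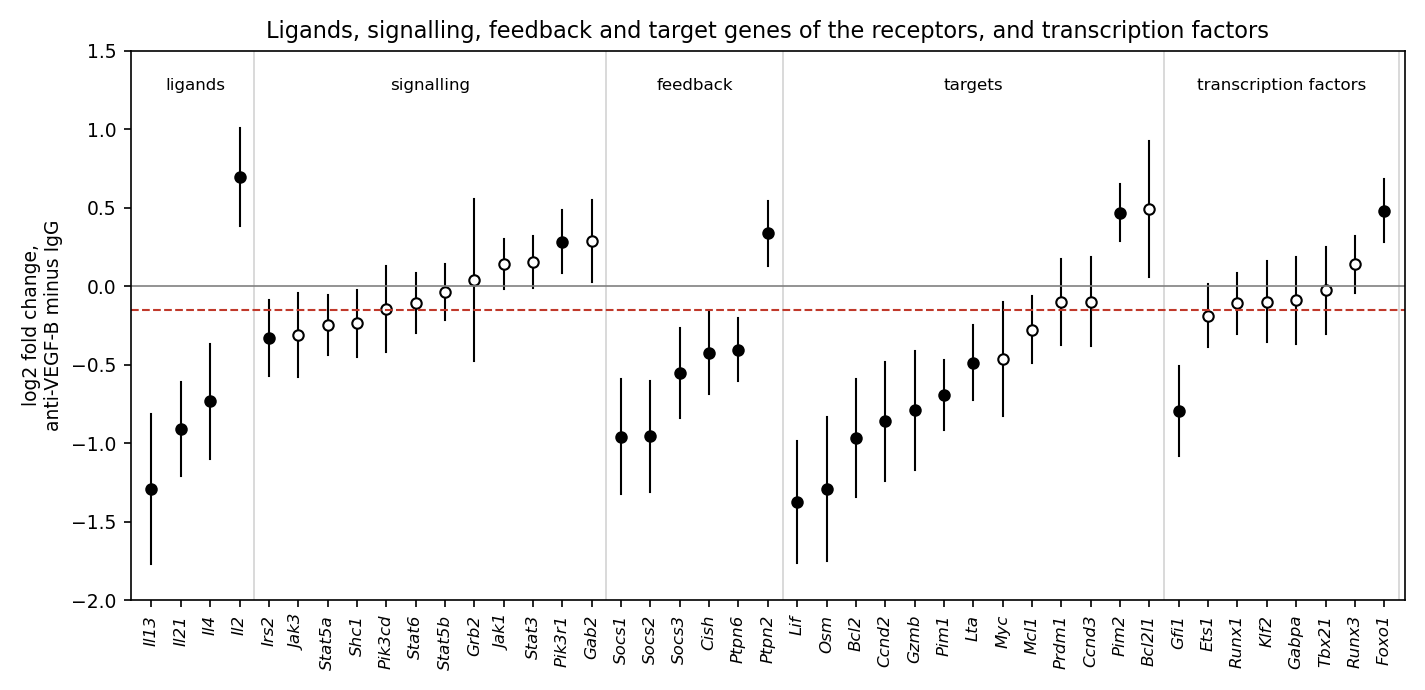
Log2 fold change of FPKM + 1, anti–VEGF-B minus IgG, with 95% intervals for ligands, signalling, feedback and target genes and transcription factors, filled where the adjusted p was under 0.05. The dashed line is the median of all tested genes, -0.15. Ligands and feedback genes hold mainly filled points under 0 with Il2 and Ptpn2 above it, and most signalling genes are open.

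Receptors of other cytokine families gave a similar picture. Of 14 tested genes 8 were lower and 0 higher, beside 23.8% and 4.87% of all tested genes, and the median was -0.34. In the gamma chain group 4 of 7 were lower, with a median of -0.32, and no test between the lists was made. Il6ra, the IL-6 binding chain, fell by 0.68 (adjusted p = 0.00711, limma), Il27ra by 0.64 (adjusted p = 0.00714), Il10ra by 0.81 (adjusted p = 0.0120) and Il17ra by 0.46 (adjusted p = 0.0187, lost in 6 of 18 alternatives). Il2ra and Il21r had lower log2 fold changes than each of these 4 genes. Ifngr1, Ifngr2 and Tgfbr2, named after their values were seen, had positive log2 fold changes (0.022, 0.081 and 0.026) and did not pass. The count of lower genes in this list was 4 under quantile normalization, beside 913 of all 8816 tested genes. Without anti–VEGF-B replicate 3 the count in this list was 3, beside 702 of all genes tested in that fit.

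Some markers of T cell state were lower, some did not pass and Ikzf2 was higher. Their part in the receptor results was not tested. The single genes given here were named after their values were seen. The counts below stand beside 23.8% lower and 4.87% higher among all tested genes. The naive T cell genes Ccr7, Tcf7 and Lef1 were lower (3 of 3). Their FPKM summed to 127 to 168 under anti–VEGF-B and 224 to 289 with IgG. Ccr7, a lymph node homing receptor, fell by 0.93 (adjusted p = 0.00714, limma), Tcf7 by 0.44 (adjusted p = 0.0106) and Lef1 by 0.35 (adjusted p = 0.0362). The call of Lef1 was lost in 9 of 18 alternatives, among them quantile normalization, median centring, cyclic loess and scaling to Actb, and that of Tcf7 in 2, with median centring (adjusted p = 0.104) and with no moderation. Of the activation genes Cd44, Cd69, Tfrc and Mki67, 2 were lower. The sums overlapped, at 147 to 150 FPKM under anti–VEGF-B and 149 to 160 FPKM with IgG. Most of each sum was Tfrc, at 116 to 124 FPKM under anti–VEGF-B and 107 to 119 FPKM with IgG. Cd69 fell by 0.74 (adjusted p = 0.00469, limma), whereas Cd44 stood at -0.18 (adjusted p = 0.168) and Tfrc at 0.098 (adjusted p = 0.324). Mki67, a gene of dividing cells, measured 1.95, 2.28 and 2.04 FPKM under anti–VEGF-B and 6.40, 9.54 and 7.13 FPKM with IgG, and fell by 1.48 (adjusted p = 0.00279). The regulatory T cell genes summed to 303 to 362 and 401 to 480 FPKM, nearly all of it Ctla4, which fell by 0.40 (adjusted p = 0.0179, limma). Ikzf2 went the other way, at 4.63, 3.62 and 4.59 FPKM under anti–VEGF-B and 2.86, 2.84 and 3.06 FPKM with IgG, and rose by 0.42 (adjusted p = 0.0231). Both calls were lost in 4 alternatives. Foxp3, their defining gene, which marks cells rich in Il2ra, was low in both groups, at 0.745 to 0.835 and 0.868 to 1.24 FPKM.

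The genes whose log2(FPKM + 1) followed that of Il2rg most closely over the 6 libraries were Taf1a, Gtf2b, 9930111J21Rik2, Zadh2 and Farp1, with Pearson r between 0.999 and 1.00. Close likeness was common, since 1082 of 8809 genes (12.3%) had an r over 0.95, and the 6 points share the 2 groups. Gtf2b, a general transcription factor gene, measured 3.13, 3.05 and 2.85 FPKM under anti–VEGF-B and 5.66, 8.23 and 6.26 FPKM with IgG. Like Il2rg, it was nearly level among the anti–VEGF-B libraries and highest in IgG replicate 2. Its log2 fold change was -0.93, that of Taf1a -0.50, that of 9930111J21Rik2 -0.64 and that of Zadh2 -1.14. For Farp1 it was -0.19, with an adjusted p of 0.151 (limma), and that value turned positive under quantile normalization.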

How the data were processed

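The authors deposited 1 table of FPKM per gene for the 6 libraries. Per the labels, total RNA was extracted with TRIzol and made into stranded libraries, and reads were mapped to GRCm38. The study's methods name hisat2, StringTie and Ballgown, and they mention raw counts, which were not used here. FPKM values are relative to each library's total, so a change in total RNA per cell does not show, and a strong change in a few genes shifts all others. Low values (under 0.3 FPKM) held no common step between libraries (at most 1.37% of genes shared a ratio), so reads per gene could not be recovered and the depth is unknown.

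Values were taken as log2(FPKM + 1) and genes that averaged 1 FPKM or more across the 6 libraries were kept. The groups were compared with limma (version 3.58.1, R 4.3.3, empirical Bayes with trend) and p-values were adjusted by Benjamini-Hochberg over all 8816 tested genes, with a threshold of 0.05. Single values were compared by exact permutation. The procedure was tested on simulated data. The 7 receptor genes were matched by symbol and position to RefSeq GRCm38.p6, and no sequences are given. The members and lists were chosen with earlier results of these data known, and 2 listed genes are not reported here and were left out of the counts of their lists. Named genes are all receptor chains, the ligands and partner chains in the table, the 4 tested genes with the lowest p in each other list, and the 5 genes most like Il2rg. Markers and a few further genes were named after their values were seen. Alternatives were other normalizations, filters and pseudocounts, no moderation or trend, the replicate number as a block, and leaving out each library.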

Additional observations from a re-analysis of the deposited data

How the results depend on the processing

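The number of receptor genes called lower (4) was 3 or 4 in every alternative but the limma fit with no moderation of the variance. In that fit it was 0 (3 at an unadjusted p under 0.05), and 6 of all tested genes were lower and 6 higher. Where 3 receptor genes were called lower, the call lost was that of Il7r. The number higher (0) became 1 after median centring. Leaving out 1 library gave 3 to 4 lower and 0 higher receptor genes, beside 702 to 2074 lower and 163 to 395 higher of all tested genes. It gave 3 to 6 chains changed relative to Il2rg and 5 to 6 receptor genes with groups apart. The all-gene shares for these last 2 counts were not taken with 1 library left out. With all 6 libraries, 78.6% of genes were higher and 0.817% lower relative to Il2rg, and 38.5% had the anti–VEGF-B group apart and lower. Il15ra could not be tested where a mean of at least 5 FPKM was required.

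Counts over all genes (2099 lower and 429 higher) depended on scaling and filters. They were 913 and 880 with quantile normalization, 807 and 1365 with median centring, 938 and 852 with cyclic loess, 1302 lower when scaled to Actb, 989 lower with a mean of at least 5 FPKM, and 6 and 6 with no moderation. The lower share of calls was 83.0% as reported and 50.9%, 37.2% and 52.4% with the first 3 of these. Leaving out 1 library gave 702 to 2074 lower and 163 to 395 higher genes. The counts were 702 and 163 without anti–VEGF-B replicate 3, 1073 and 257 without IgG replicate 2, and 1389 lower without anti–VEGF-B replicate 1. Pathway genes (17 lower, 6 higher) came to 11 higher with median centring and to 0 and 0 with no moderation (18 and 7 at an unadjusted p under 0.05), and with 1 library left out to 12 to 19 lower and 2 to 6 higher (2 without anti–VEGF-B replicate 3, 3 without replicate 1 or 2). Other cytokine receptors (8 lower) came to 4 with quantile normalization, 3 with median centring, 4 with cyclic loess, 4 with a mean of at least 5 FPKM and 0 with no moderation (8 at an unadjusted p under 0.05), and to 3 to 7 with 1 library left out (3 and 5 without anti–VEGF-B replicates 3 and 2, 4 without IgG replicate 2). The causes were not tested.

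Some small changes turned direction. Il15ra was at 0.012 with quantile normalization and 0.0038 with cyclic loess, Il4ra at 0.024 with median centring and Il2rb at -0.0044 with cyclic loess. Farp1 was at 0.048, 0.011 and 0.035 with quantile normalization, median centring and cyclic loess, and Ets1 at 0.014 with median centring. Stat5b was at 0.16 with median centring, 0.031 when scaled to Actb and -0.085 to 0.023 with 1 library left out (0.023 without IgG replicate 2). Gabpa was at 0.041, 0.11 and 0.017 with those 3 normalizations and -0.18 to 0.024 with 1 library left out (0.024 without anti–VEGF-B replicate 2). Tbx21 was at 0.10, 0.18 and 0.087 with them, 0.039 when scaled to Actb and -0.13 to 0.11 with 1 library left out (0.0099 without anti–VEGF-B replicate 2 and 0.11 without IgG replicate 2).

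The groups were compared unpaired by plan, because the study's methods state an unpaired comparison, and the replicate number was an alternative. The deviations of libraries with the same replicate number had correlations of -0.030, 0.11 and 0.089 for numbers 1 to 3. Between libraries of unlike number they ran from -0.17 to 0.10. With the replicate number as a block, 2109 genes were lower and 469 higher, 3 receptor genes were lower, and the adjusted p of Il7r was 0.0589. As an alternative chosen after seeing the data, each other receptor chain took the place of Il2rg as the reference. The number of chains changed (4) was then 2 relative to Il7r, and 3 to 6 relative to the others. Of all genes, 44.8% were lower relative to Il2rb, 7.95% relative to Il4ra and 4.39% relative to Il15ra. The shares higher relative to these genes, and all shares relative to Il2ra, Il7r and Il21r, were not counted.

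With 3 libraries a group, an exact test cannot go under 0.1, and the calls rest on the variance shared across genes. Depth is unknown, so the precision at low levels (Il15ra, Il2, Il21) cannot be given.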
